A study of Mus musculus with 6 samples.

Results

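The kappa V segments are the variable gene segments of the immunoglobulin kappa light chain, written Igkv, on mouse chromosome 6. Members were chosen by measured counts: they are the genes typed as immunoglobulin V genes whose symbol starts with Igkv and that had at least 1 count in any of the 6 libraries. That gave 91 members of 100 kappa V genes in the table, which lists 53465 genes in all. Detection in these counts thus selected the members, and the set was proposed with results of these data known, so the values that follow are a description and no count of members is offered as support.

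RNA was sequenced from bone marrow cells sorted as long-term haematopoietic stem cells, by a gate without lineage markers, with Sca-1 and c-Kit and without Flk2 and CD34. The mice were wild type and all of them, in both groups, had received 5.0 Gy of total body irradiation. The 2 groups were mice given carnosine, a small molecule made of the amino acids beta-alanine and histidine, and mice given saline, with 3 libraries each. No library from an unirradiated mouse was used, and neither the carnosine dose, the time of sampling, the age of the mice nor any pooling of animals is stated in the labels. Nor do they tell if each of a group's 3 libraries is from its own mouse, so p-values speak of spread among libraries alone, and that spread may be technical.

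A kappa light chain gene is built in a B cell by joining 1 of many V segments to 1 of a few J segments, after which splicing links the joined exon to the single constant segment, Igkc. A cell and its descendants normally express 1 such joined V segment, so V transcripts in bulk RNA come from whichever clones the sample holds. B cells express the joined gene, and plasma cells, which secrete antibody, do so at very high levels. V segments lie in both orientations along the locus, so that some join J by deletion and others by inversion of the DNA between them. Stem cells have not joined their V segments, although sterile V transcripts from unjoined segments are known in B cell precursors.

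Some segments that carry the main patterns, with close relatives, are shown by the last coding bases of their germline sequence. That part lies at the join to J and begins the last hypervariable loop of the antigen binding site. Sequences are from GENCODE M21 transcripts on GRCm38, 5′ to 3′ on the coding strand, and capitals mark the stretch from the last in-frame TGT or TGC codon, which encodes the conserved cysteine, to the end of the segment. The first line belongs to the segment with the highest CPM among those without a count in any saline library, and the second to the segment with counts in saline libraries alone.
Igkv12-38: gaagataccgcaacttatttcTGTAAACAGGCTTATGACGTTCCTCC
Igkv8-34: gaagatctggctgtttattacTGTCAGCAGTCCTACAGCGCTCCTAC
Igkv14-126: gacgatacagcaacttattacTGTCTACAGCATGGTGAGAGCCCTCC
Igkv5-43: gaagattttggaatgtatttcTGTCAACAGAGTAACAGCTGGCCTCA
Igkv5-45: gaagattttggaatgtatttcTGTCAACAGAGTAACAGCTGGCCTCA
Igkv13-85: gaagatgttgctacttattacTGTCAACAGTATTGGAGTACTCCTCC
Igkv13-84: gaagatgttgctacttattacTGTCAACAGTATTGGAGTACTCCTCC
Igkv4-55: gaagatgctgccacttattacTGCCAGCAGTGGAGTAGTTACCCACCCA
Igkv4-59: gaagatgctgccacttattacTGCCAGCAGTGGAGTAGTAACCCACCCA
Igkv10-94: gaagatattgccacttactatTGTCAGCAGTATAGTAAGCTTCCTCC
Igkv10-95: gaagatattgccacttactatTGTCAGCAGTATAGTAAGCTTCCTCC

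Some of the printed segments are alike at these ends, where antibody diversity is added. The printed runs of Igkv5-43 and Igkv5-45, of Igkv13-85 and Igkv13-84, and of Igkv10-94 and Igkv10-95 had 0 differences, and those of Igkv4-55 and Igkv4-59 had 1. Among the 91 members there were 84 distinct ends, and 12 members shared such an end with another member. Over whole coding sequences, the closest other kappa V gene had from 72.8 to 98.6% identical bases (median 94.7%), and 44 members had one at 95% or above. The labels do not state how reads that fit several segments were assigned, so the level of each segment is uncertain, most of all in such pairs.

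The libraries held 13651553, 13623268 and 12730837 counts with carnosine and 16866534, 15710288 and 12602067 with saline. Of the stem cell gate genes, Kit, which encodes c-Kit, was at 378 ± 4.11 CPM with carnosine and 329.6 ± 10.2 CPM with saline (CPM, the library's counts scaled to a common total by TMM; SD, n = 3 each). Ly6a, which encodes Sca-1, was at 29.2 ± 8.79 CPM with carnosine and 30.2 ± 8.13 CPM with saline (SD, n = 3 each). Procr, the stem cell receptor for protein C, was at 4.97 ± 0.418 CPM with carnosine and 5.66 ± 0.219 CPM with saline. Slamf1, Mecom and Fgd5 were lower with carnosine, whereas the Hlf means lay close together. Slamf1 was at 14.99 ± 1.40 CPM with carnosine and 28.56 ± 0.736 CPM with saline, and Mecom at 10.36 ± 1.10 and 20.87 ± 2.55 CPM. Fgd5 was at 1.76 ± 0.344 CPM with carnosine and 3.29 ± 0.391 CPM with saline. Hlf was at 22.55 ± 1.71 CPM with carnosine and 22.81 ± 8.54 CPM with saline (SD, n = 3 each). The label of stem cells names the gate, and antibody transcripts were present in all 6 libraries beside it.

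Kappa V transcripts were more abundant in the carnosine libraries, and the segments used differed between the groups far more than among the libraries of a group. Summed over the members they reached 1651, 1649 and 1617 CPM with carnosine, against 966, 949 and 947 CPM with saline. The groups did not overlap, and the ratio of their means was 1.72. The share of all counts that fell on kappa V segments was 0.167 ± 0.00208% with carnosine and 0.0933 ± 0.00103% with saline (SD, n = 3 each). In bulk RNA, more cells of a type and more RNA per cell cannot be told apart.

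The constant segment followed the same course. Igkc, which supplies the constant domain of every kappa chain, had 1989, 1998 and 2017 CPM with carnosine and 1125, 1134 and 1118 CPM with saline, and rose (log2 fold change 0.83 ± 0.0182, SE; adjusted p = 2.3e-07 by the quasi-likelihood test of edgeR). For every 100 counts on Igkc there were 83.0, 82.5 and 80.2 counts on V segments with carnosine, against 85.8, 83.7 and 84.7 with saline. The V and constant counts therefore kept nearly 1 ratio in all libraries, a little lower with carnosine. The 5 J segments, which are very short, had 1 to 5 counts each per library with carnosine and 0 to 3 with saline.

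**Figure D1:**
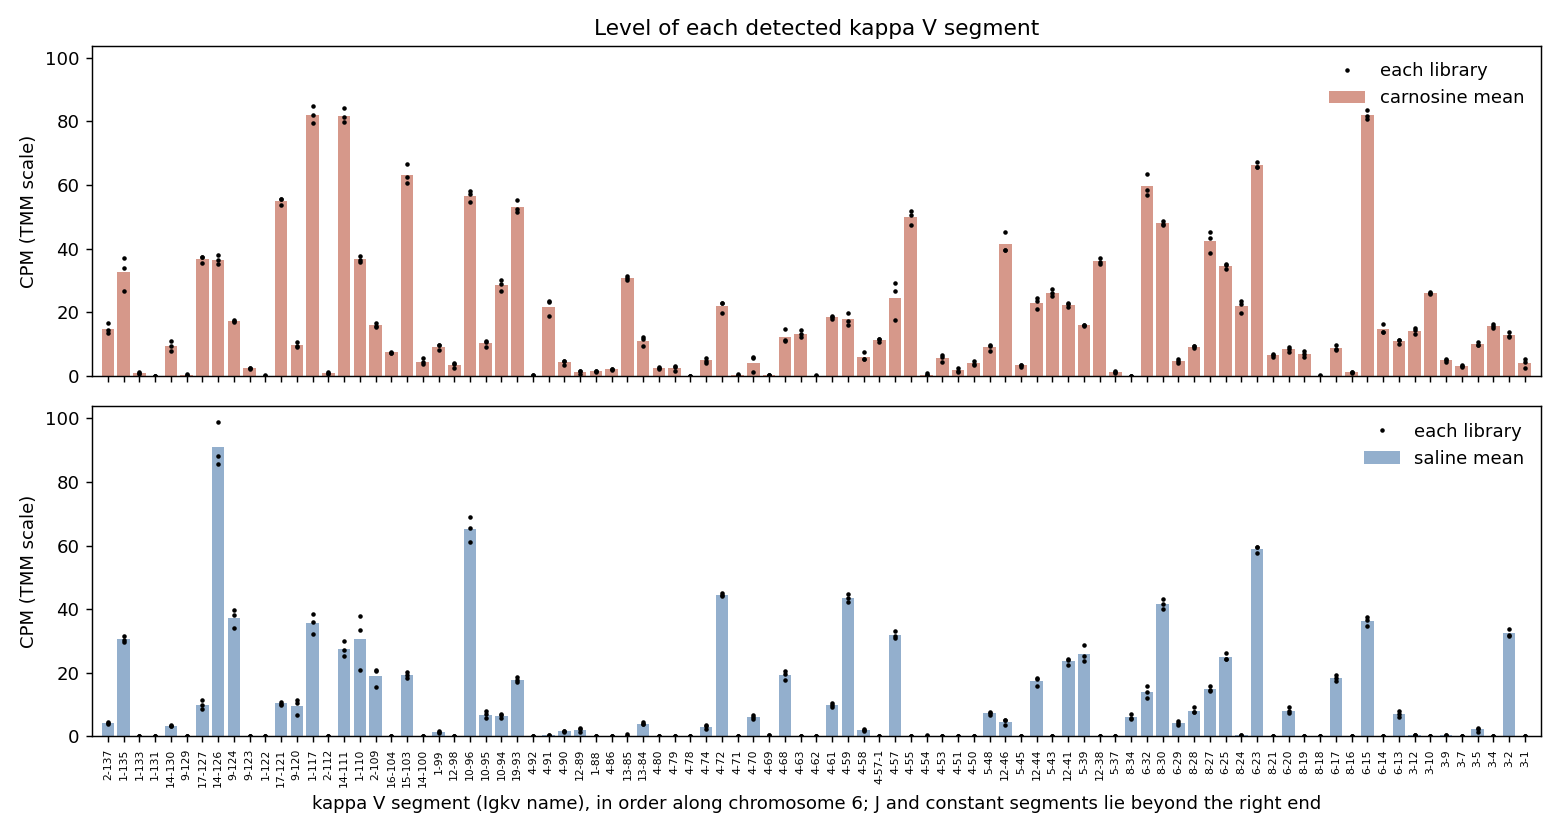
Level in CPM of the 91 detected kappa V segments, in their order along chromosome 6, in carnosine libraries (upper panel) and saline libraries (lower panel). Bars are means and points the 3 libraries; tall bars stand at different segments in the panels, such as Igkv14-126 at 36.5 CPM with carnosine and 90.9 CPM with saline, while the points of a group lie close together.

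The order of the segments changed between the groups. On the deposited FPKM scale, the highest segments with carnosine were Igkv6-15 (240.6 ± 4.67 FPKM), Igkv14-111 (226 ± 6.51) and Igkv1-117 (206.9 ± 6.99). Those with saline were Igkv14-126 (248.5 ± 18.5), Igkv10-96 (178 ± 11.2) and Igkv6-23 (156 ± 2.72; SD, n = 3 each). Of the 10 highest in each group on that scale, 5 were the same, namely Igkv6-15, Igkv1-117, Igkv6-23, Igkv10-96 and Igkv8-30. The lengths implied by counts and FPKM ran from 347 to 741 bases, so that scale and the CPM scale rank segments differently. On the CPM scale 4 of the 10 highest were the same. The implied lengths did not always follow the annotated ones. Igkv17-121 and Igkv14-126 have annotated transcripts of 359 and 358 bases. With carnosine, Igkv17-121 had 55.07 CPM and 79.07 FPKM, and Igkv14-126 had 36.53 CPM and 103.9 FPKM. Ranks in FPKM are therefore not ranks per annotated length.

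Usage was broader with carnosine. Between 84 and 88 members had a count in a carnosine library, against 64 to 67 in a saline library. Thinned to 11655 kappa V counts, the total of the smallest library, the expected numbers were 84.8, 86.5 and 83.4 with carnosine and 63.4, 63.8 and 67.0 with saline, so most of the difference remained at equal kappa V counts. It took 14 or 15 segments to hold 50% of the kappa V counts in a carnosine library, and 10 in each saline library. The effective number of segments, which is the exponential of the Shannon entropy of their shares, was 51.1 to 51.3 with carnosine and 32.9 to 33.4 with saline.

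The libraries of a group used the segments in almost the same proportions. The part of the kappa V counts that would have to be moved between segments to turn 1 library's usage into another's was 3.69 to 3.80% among carnosine libraries and 4.12 to 5.47% among saline libraries, against 40.7 to 41.1% between the groups. The squared difference of 2 libraries was taken per segment with at least 10 counts on average, and its median over segments was set against counting noise. That median was 1.29 to 1.51 times what counting alone gives among carnosine libraries and 1.61 to 2.02 times among saline libraries. Between groups it was 114 to 142 times, which on this CPM scale includes the rise of the kappa V sum as well as changed usage. Over all genes the same measure was 1.59 to 1.76 among carnosine libraries, 1.75 to 1.79 among saline libraries and 7.80 to 8.80 between groups. The measure grows with counts, which were not matched between these segments and all genes. Pearson's r of log2(CPM + 1) across the 91 segments, which are not independent and share each library's depth, was 0.987 to 0.993 within carnosine, 0.995 to 0.996 within saline and 0.651 to 0.662 between groups.

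**Figure D2:**
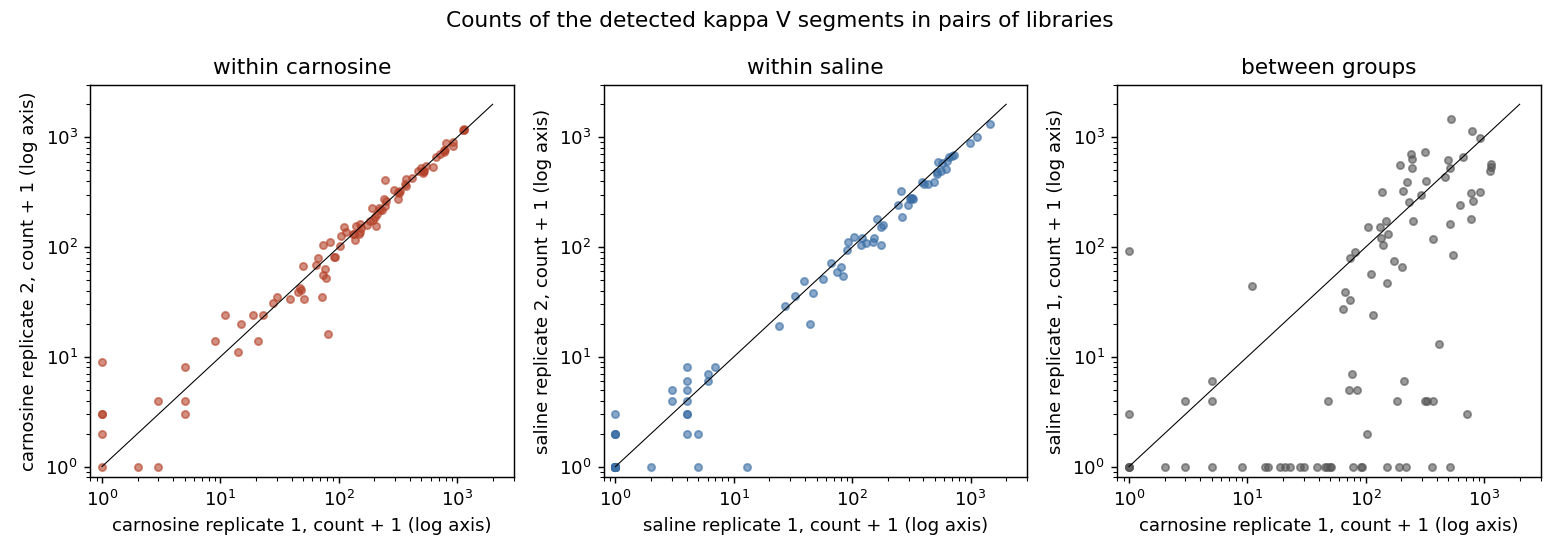
Counts plus 1 of the 91 kappa V segments, on log axes, in 2 carnosine libraries (left), 2 saline libraries (middle) and a carnosine against a saline library (right), with the line of equal counts. Segments lie along the line within groups and scatter from it between groups, where a row of segments at 0 counts with saline runs along the bottom.

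Heavy chain V segments, whose genes are joined separately on chromosome 12, were set beside them. The 101 detected ones summed to 1683 ± 3.79 CPM with carnosine and 887 ± 6.14 CPM with saline (SD, n = 3 each). The medians of their squared differences were 0.893 to 1.09 times counting noise among carnosine libraries, 1.11 to 1.38 among saline libraries and 119 to 143 between groups.

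Of the 91 kappa V segments, 60 were higher in every carnosine library than in any saline library, 11 were lower in the same sense and 20 overlapped. Over all genes with at least 1 count, 16.9% were higher without overlap and 17.4% lower. A filter on low counts left 80 of the members for the same test, of which 58 were called higher, 10 lower and 12 not (Benjamini-Hochberg adjusted p under 0.05 over all genes), where 19.6% of all tested genes were called higher and 19.8% lower. The median log2 fold change of those 80 was 1.77, also with segments at 0 in a group set to their bound, and -5.03e-05 over all tested genes. A segment absent with saline entered the test only through its carnosine counts, so these figures describe the set and are read no further. The 11 untested members were low in all libraries, with means under 1 CPM in both groups.

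The rise of the sum did not set the direction for every segment. Expressed as a share of the kappa V counts of its library, 51 segments were higher in every carnosine library, 25 were lower and 15 overlapped. Shares sum to 100% in each library, so a rise of some lowers others.

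A total of 19 segments had 0 counts in all saline libraries. Of these, 3 (Igkv1-122, Igkv4-78 and Igkv8-18) had only 1 or 2 counts in 1 carnosine library. The other 16 were at 0.89 to 36.0 CPM with carnosine, and together all 19 reached 137, 138 and 130 CPM in the carnosine libraries. A count of 0 allows a level of up to 0.0679 CPM over the saline group (3 counts; this and the intervals below cover counting error only). It also allows a share of up to 0.00711% of the 42209 kappa V counts with saline.

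Igkv12-38 (ENSMUSG00000076570, chromosome 6, 69943186 to 69943648, minus strand, GRCm38) had 37.2, 35.8 and 35.1 CPM with carnosine and 0 in each saline library. It was the highest of these segments on the CPM scale and made up 2.25, 2.17 and 2.17% of the kappa V counts with carnosine. Against the floor it was at least 531 times higher. Igkv5-43 (chromosome 6, 69823355 to 69823943, minus strand) had 26.1, 27.2 and 25.2 CPM with carnosine and 0 with saline, at least 386-fold higher. Igkv3-4, on the plus strand, had 15.8, 16.2 and 15.1 CPM with carnosine and 0 with saline. For all 3 the carnosine libraries lay close together and no saline library had a count. Igkv6-14 had 13.8, 16.3 and 13.9 CPM, Igkv4-57-1 had 10.7, 11.7 and 11.6 CPM and Igkv4-53 had 6.62, 5.84 and 4.48 CPM with carnosine, all with 0 counts in the saline libraries. The lower bounds of these last 4 segments were 232, 216, 167 and 83.2.

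Igkv8-34 (ENSMUSG00000104769, chromosome 6, 70044112 to 70044678, minus strand) was the 1 member with the opposite pattern. It had 0 counts in each carnosine library and 5.58, 7.14 and 5.93 CPM with saline. It was at least 84.4 times lower with carnosine, against 3 counts over the carnosine group, and its closest detected neighbours on the chromosome, Igkv5-37 and Igkv6-32, were both higher with carnosine. Igkv5-37 averaged 1.23 ± 0.261 CPM with carnosine and 0 with saline, and Igkv6-32 averaged 59.6 ± 3.47 CPM with carnosine and 14.02 ± 2 CPM with saline (SD, n = 3 each).

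Several segments had a handful of saline counts and far more with carnosine. Igkv4-55 (chromosome 6, 69607275 to 69607828, minus strand) had 723, 703 and 615 counts with carnosine and 2, 4 and 2 with saline. In CPM it stood at 50.05 ± 2.31 with carnosine and 0.18 ± 0.0711 with saline (SD, n = 3 each), 276 times higher. Igkv13-85 had 418, 426 and 407 counts with carnosine and 12, 0 and 0 with saline, a ratio of 127. Its level with saline thus rests on saline replicate 1, without which Igkv13-85 was at least 284 times higher, and without saline replicate 2 or 3 the ratio was 84.5. Igkv3-10 had 26.4, 25.7 and 25.9 CPM with carnosine and 0.18, 0.26 and 0.24 CPM with saline (114-fold). Igkv4-63 (97.6-fold), Igkv4-91 (71.7-fold), Igkv8-24 (68.8-fold), Igkv3-12 (44.6-fold) and Igkv8-19 (37.8-fold) were of the same kind. In that order they had 6, 13, 14, 14 and 8 counts over the saline group. The ratios from Igkv4-55 to Igkv8-19 rest on such few saline counts, and no counting interval was computed for them. For Igkv16-104, with 302 counts in the carnosine and 2 in the saline libraries, the ratio was 164 (95% counting interval 45.0 to 1360), and for Igkv8-21, with 262 in the carnosine and 2 in the saline libraries, it was 142 (39.0 to 1180).

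Among the 64 members with more than 3 counts in both groups, 18 were at least 4 times higher with carnosine on the CPM scale and 0 were at least 4 times lower, with Igkv8-34 outside this set. The 10 segments called lower, Igkv8-34 included, also held Igkv14-126, Igkv3-2, Igkv4-59, Igkv9-124, Igkv6-17 and Igkv4-72, which were 2.04 to 2.51 times lower with carnosine. Igkv14-126 (ENSMUSG00000094345, chromosome 6, 67896172 to 67896642, plus strand) had 38.1, 35.2 and 36.3 CPM with carnosine and 88.2, 85.8 and 98.8 CPM with saline. Its share of kappa V counts was 2.23 ± 0.0885% with carnosine and 9.54 ± 0.779% with saline (SD, n = 3 each), a wider gap than on the CPM scale. Igkv4-72 had 22.9, 22.8 and 19.8 CPM with carnosine and 44.1, 44.9 and 44.6 CPM with saline. Igkv4-59 had 17.4, 19.8 and 16.1 CPM with carnosine, against 42.3, 43.6 and 44.8 CPM with saline. The last pair of high saline segments was Igkv9-124 (17.3 ± 0.294 CPM with carnosine, 37.3 ± 2.89 with saline) and Igkv3-2 (12.9 ± 0.861 CPM with carnosine, 32.5 ± 1.25 CPM with saline; SD, n = 3 each).

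**Figure D3:**
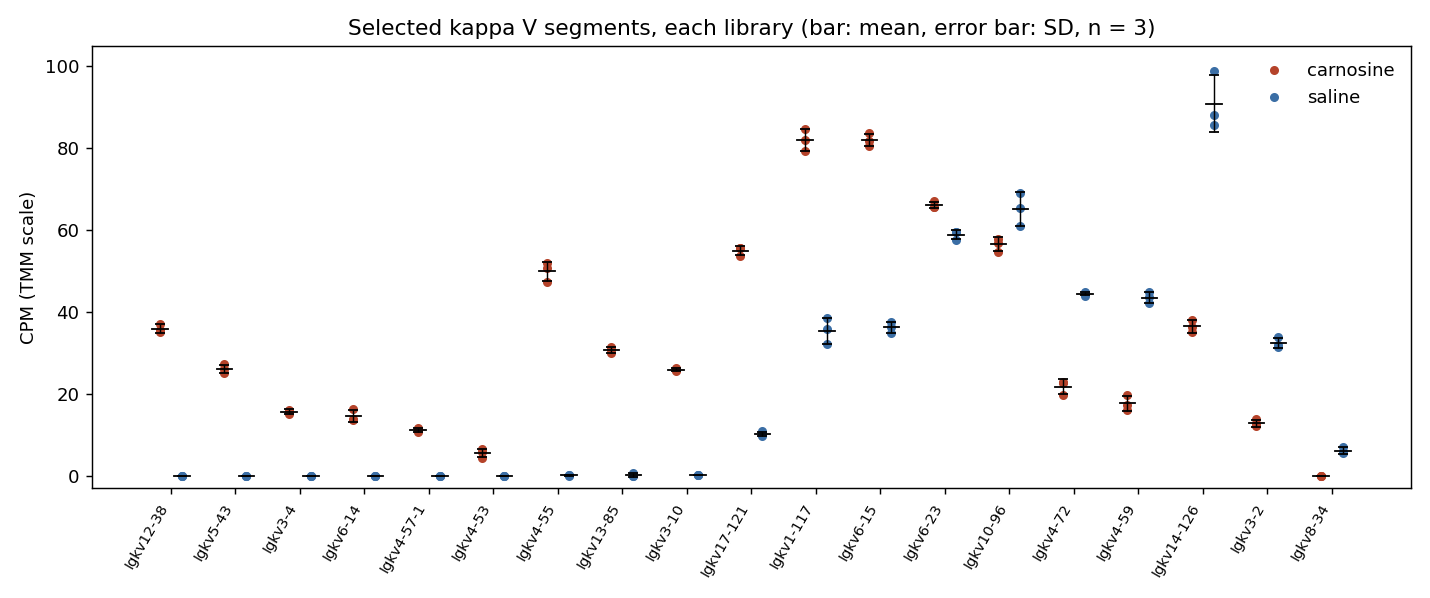
CPM of 19 kappa V segments in each carnosine (left of each pair) and saline (right) library, with mean and SD of 3 libraries. From the left come segments at 0 or near 0 with saline, then segments high in both groups such as Igkv6-23, then segments higher with saline, ending with Igkv8-34 at 0 with carnosine.

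Some segments were abundant in both groups. Igkv6-23 had 65.8, 65.6 and 67.1 CPM with carnosine and 59.6, 57.6 and 59.5 CPM with saline. Igkv10-96 had 57.0, 54.7 and 58.0 CPM with carnosine and 69.1, 65.6 and 61.0 CPM with saline. Igkv8-30 was at 47.9 ± 0.588 with carnosine and 41.5 ± 1.55 CPM with saline (SD, n = 3 each). The calls of these 3 segments, higher for Igkv6-23 and Igkv8-30 and lower for Igkv10-96, were lost in 1, 1 and 7 of 11 alternative settings, with p-values adjusted over all genes from 0.00072 to 0.082 over those edgeR, DESeq2 and limma settings. Igkv6-15, with 81.8, 83.7 and 80.6 CPM with carnosine and 34.9, 37.5 and 36.5 CPM with saline, and Igkv1-117, with 82.0, 84.8 and 79.4 CPM with carnosine and 32.2, 38.6 and 35.8 CPM with saline, were 2.26 and 2.31 times higher.

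Further segments among the 10 highest with carnosine on the CPM scale were Igkv14-111 (81.8 ± 2.31 CPM with carnosine, 27.4 ± 2.36 with saline), Igkv15-103 (63.2 ± 3.09 CPM with carnosine, 19.2 ± 0.994 with saline), Igkv6-32, given above, Igkv17-121 (55.1 ± 1.07 CPM with carnosine, 10.4 ± 0.508 with saline) and Igkv19-93 (53.1 ± 2.12 CPM with carnosine, 17.9 ± 0.869 with saline; SD, n = 3 each). All of these were higher without overlap, from 2.97 to 5.32 times. The 12 tested segments that were not called had ratios of 0.624 to 1.24, and included Igkv12-41 (22.4 ± 0.664 CPM with carnosine, 23.7 ± 0.981 with saline) and Igkv6-20 (8.31 ± 0.801 CPM with carnosine, 8.06 ± 0.956 CPM with saline; SD, n = 3 each). A miss of the threshold does not show that they were equal.

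A few segments varied within a group. Of 80 members with a mean of at least 10 counts in the carnosine group, 4 had libraries over 2-fold apart there, and 1 of 48 did in the saline group. Igkv4-70 had 80, 15 and 75 counts in the carnosine libraries, against 89, 93 and 81 with saline, the lowest in carnosine replicate 2. Igkv4-57, a member of the same subgroup, was higher in that library, with 243, 405 and 346 counts with carnosine and 519, 478 and 406 with saline. The remaining wide segments were Igkv3-1, Igkv2-112 and Igkv12-89 with carnosine and Igkv12-89 with saline. Igkv1-110 had 35.9, 37.6 and 36.5 CPM with carnosine, against 37.8, 33.6 and 20.96 CPM in the saline libraries.

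Kappa V segments are sorted into subgroups by sequence, given by the number after Igkv, and members were detected from 16 of them. Subgroup 6, with 9 detected segments, summed to 290 ± 6.22 CPM with carnosine and 172 ± 3.72 CPM with saline, and subgroup 4, with 25, to 230.2 ± 9.30 CPM with carnosine and 163 ± 3.76 CPM with saline (SD, n = 3 each). Their shares of the kappa V counts were 17.7 and 14.0% with carnosine and 18.0 and 17.1% with saline. Members of a subgroup did not move as 1. In subgroup 4, 14 segments were higher with carnosine without overlap, 4 lower and 7 overlapping, and in subgroup 6 there were 6, 1 and 2. Of all genes with at least 1 count, 16.9% were higher without overlap and 17.4% lower.

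Some smaller subgroups had larger ratios. Subgroup 13, made of Igkv13-84 and Igkv13-85, reached 41.8 ± 0.771 CPM with carnosine and 4.299 ± 0.746 with saline, a ratio of 9.73. Subgroup 17 (Igkv17-121 and Igkv17-127) was at 91.8 ± 0.936 CPM with carnosine and 20.3 ± 1.72 CPM with saline, 4.52 times higher. Subgroup 12 was 2.67 times higher and subgroup 3 2.54 times. In subgroup 3, 7 of 8 segments were higher without overlap and Igkv3-2 was lower, beside 16.9% and 17.4% of all genes with a count. Subgroup 9 alone had a lower sum with carnosine, 29.6 ± 0.693 CPM, against 46.9 ± 1.72 CPM with saline (ratio 0.631), of which Igkv9-124 was the largest part in both groups. Subgroup 14 was at 132 ± 2.20 CPM with carnosine and 122 ± 7.57 CPM with saline, a sum in which Igkv14-111 was higher and Igkv14-126 lower with carnosine.

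**Figure D4:**
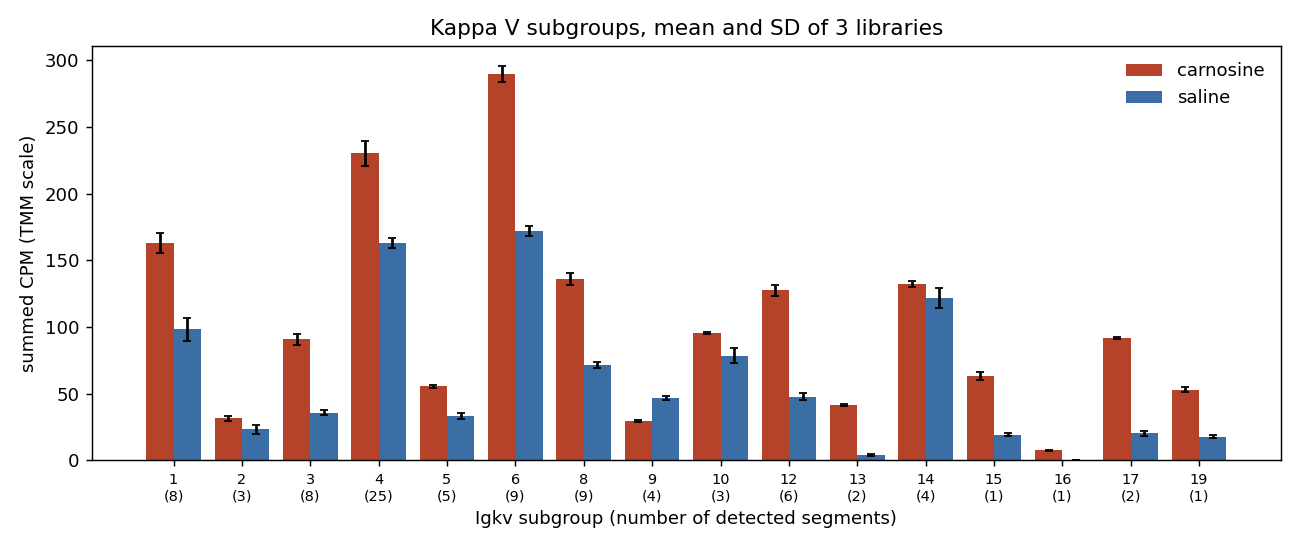
Summed CPM of each kappa V subgroup with carnosine (left bar of a pair) and saline (right bar), mean and SD of 3 libraries, with the number of detected segments in brackets. Most pairs are higher with carnosine, from 1.09 times for subgroup 14 to 9.73 times for subgroup 13 among subgroups above 2 CPM in both groups, and subgroup 9 is lower.

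Shares by position along the locus differed by a few percent of the kappa V counts or less. The members ran from Igkv2-137 (chromosome 6, 67555497 to 67556216, 14.9 ± 1.72 CPM with carnosine, 4.24 ± 0.302 with saline) to Igkv3-1 (70703578 to 70704177, 4.01 ± 1.40 CPM with carnosine, 0.162 ± 0.14 CPM with saline; SD, n = 3 each), the detected segment nearest to the J segments. Of the members split by order into 3 parts of 30 or 31, the part farthest from J held 42.5 ± 0.372% of the kappa V counts with carnosine and 45.1 ± 0.609% with saline, the middle part 21.4 ± 0.387% with carnosine and 20.4 ± 0.613% with saline, and the part nearest to J 36.1 ± 0.263% with carnosine and 34.5 ± 0.123% with saline (SD, n = 3 each). Segments at 0 with saline occurred in each part, numbering 5, 8 and 6. The 33 members on the plus strand took 40.1 ± 0.548% of the counts with carnosine and 40.1 ± 0.256% with saline, and the 58 on the minus strand the rest. The groups overlapped in the shares by strand and in that of the middle part, and not in those of the 2 outer parts. Segments higher and lower with carnosine without overlap numbered 23 and 3 on the plus strand and 37 and 8 on the minus strand. The shares over all genes with at least 1 count were 16.9% higher and 17.4% lower.

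Closely related segments could differ in pattern. Of 34 detected pairs of members at 95% identity or above, 20 had both members' means on the same side of equality, and the others on opposite sides. Pairs share members, and some of either kind rest on a member with few counts or with group means close together. Igkv4-62, for example, had 2 counts in each group, and Igkv12-41 was at 22.4 CPM with carnosine and 23.7 CPM with saline. The split of the pairs is therefore not read as a measure of how often relatives differ. Igkv4-55 and Igkv4-59 are 95.2% identical, yet the first was at 50.05 CPM with carnosine and 0.18 with saline and the second at 17.8 CPM with carnosine and 43.6 CPM with saline. Igkv13-84, with 13 differences from Igkv13-85 and the same printed end, was at 11.1 ± 1.44 CPM with carnosine and 4.06 ± 0.336 with saline (SD, n = 3 each). Igkv5-43 and Igkv5-45 differ at 5 bases, and the second had 47, 40 and 46 counts with carnosine and 3, 2 and 3 with saline. Igkv10-94 (28.5 ± 1.81 CPM with carnosine, 6.54 ± 0.688 CPM with saline) and Igkv10-95 (10.3 ± 0.998 CPM with carnosine, 6.86 ± 1.10 CPM with saline) were both higher with carnosine, while Igkv10-96, 95.4% identical to Igkv10-94, was lower.

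The members with the fewest counts were Igkv4-78 with 1 count in all libraries together and Igkv1-122, Igkv1-131 and Igkv8-18 with 2 each. Outside it, 9 kappa V genes had 0 counts in all 6 libraries, namely Igkv1-132, Igkv11-125, Igkv20-101-2, Igkv4-81, Igkv18-36, Igkv1-35, Igkv7-33, Igkv8-26 and Igkv3-3. The 60 kappa V pseudogenes, which were not members, summed to 6, 1 and 7 counts with carnosine and 5, 6 and 3 with saline, so reads were hardly assigned to them in either group.

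Other antibody and B lineage genes were taken from lists chosen with earlier results known, and 39.4% of all tested genes were called in 1 direction or the other. In the lambda locus, which encodes the alternative light chain, all 6 genes were higher with carnosine: Iglv1 (53.4 ± 1.18 CPM with carnosine, 25.7 ± 6.77 with saline), Iglc1, Iglc2, Iglc3, Iglv2 and Iglv3, the last at 8.83 ± 1.06 CPM with carnosine, 0.448 ± 0.181 CPM with saline (SD, n = 3 each). Of 9 plasma cell genes 6 rose and 0 fell. They included Xbp1, a transcription factor of secretory cells (167 ± 1.97 CPM with carnosine, 126 ± 1.79 CPM with saline), the surface receptor Slamf7 (33.9 ± 0.692 CPM with carnosine, 9.94 ± 1.55 CPM with saline), Irf4, a factor needed for plasma cells (17.7 ± 1.82 CPM with carnosine, 10.9 ± 1.62 CPM with saline), and Mzb1, a chaperone of antibody assembly (9.07 ± 0.657 CPM with carnosine, 4.78 ± 0.48 CPM with saline; SD, n = 3 each). The 3 others did not pass: Jchain, which joins antibody polymers, Sdc1 and Tnfrsf17. Sdc1 was at 11.92 ± 1.48 CPM with carnosine and 10.77 ± 1.21 CPM with saline. Tnfrsf17 was at 1.42 ± 0.336 CPM with carnosine and 0.90 ± 0.332 CPM with saline (SD, n = 3 each). Jchain had 584, 576 and 281 CPM with carnosine, the lowest in carnosine replicate 3, and 314, 324 and 328 CPM with saline, whereas the kappa V sum of that carnosine library was 1617 CPM. The summed plasma cell list, of which Jchain was the largest part, ran from 537 to 836 CPM with carnosine and from 490.5 to 496 CPM with saline.

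Mature B cell genes were low, and none was called higher with carnosine. Of 8, 5 were tested, of which 0 rose and 1 fell, Ms4a1, which encodes CD20 (0.15 ± 0.155 CPM with carnosine, 1.41 ± 0.209 with saline). Cd79b and Cd79a encode the signalling chains of the B cell receptor. Cd79b was at 12.9 ± 1.06 CPM with carnosine and 12.9 ± 1.16 CPM with saline, and Cd79a at 6.59 ± 0.839 CPM with carnosine and 6.17 ± 0.444 CPM with saline (SD, n = 3 each). Fcer2a had 0 counts with carnosine, and the list summed to 22.6 to 25.2 CPM with carnosine and 24.8 to 27.5 CPM with saline. Of 8 genes of B cell precursors, Rag1 and Rag2 rose, Dntt fell and 5 did not pass, where 39.4% of all tested genes were called. The products of Rag1 (6.43 ± 0.102 CPM with carnosine, 4.39 ± 0.56 CPM with saline) and Rag2 (3.82 ± 0.573 CPM with carnosine, 1.09 ± 0.0988 CPM with saline) cut V and J segments for joining. Dntt, which encodes the enzyme that adds bases at joins, was at 109 ± 7.35 CPM with carnosine and 140.5 ± 7.07 CPM with saline (SD, n = 3 each). The surrogate light chain genes Vpreb1 and Igll1 averaged under 2 CPM in both groups.

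Lists for other cells were set beside these, where 39.4% of all tested genes were called in 1 direction or the other. In a T cell list 4 of 6 genes were tested and all 4 rose, the highest of them Cd8a (9.18 ± 0.645 CPM with carnosine, 2.90 ± 0.576 with saline; SD, n = 3 each). The others were low: with carnosine and saline, Cd4 was at 3.50 and 1.64 CPM, Trac at 1.53 and 0.589 and Cd3e at 1.22 and 0.155. Cd3d and Cd3g, under 1 CPM on average in both groups, were not tested. The list summed to 16.0 to 18.8 CPM with carnosine and 5.44 to 6.49 CPM with saline. A macrophage list had 1 of 4 tested genes higher, Vcam1, and 0 lower, with sums of 21.9 to 24.7 CPM with carnosine and 20.96 to 23.2 CPM with saline. A neutrophil list had S100a8 higher and S100a9 lower of 3 tested. Its sums were 15.4 to 18.9 CPM with carnosine and 17.6 to 18.8 CPM with saline. The macrophage and neutrophil sums overlapped between the groups, and the calls in these lists are not read as a result about those cells. Among the stem cell genes reported here, Kit rose, Slamf1, Mecom and Fgd5 fell, and Ly6a, Procr and Hlf did not pass. The part of these cells in the kappa V levels was not tested.

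Of 11 genes for factors that bind kappa V promoters or kappa enhancers, 3 rose (Pou2af1, Irf8 and Spi1), 2 fell and 6 did not pass. Over all tested genes 39.4% were called in 1 direction or the other, so these counts are not read as a result about the factors. Pou2af1, the B cell partner of the octamer factors, was at 19.8 ± 0.383 CPM with carnosine and 8.89 ± 1.03 CPM with saline, and Irf8 at 248 ± 6.82 CPM with carnosine and 182 ± 6.76 CPM with saline. The NF-kB subunit genes Rela (110 ± 2.84 CPM with carnosine, 157 ± 3.16 CPM with saline) and Nfkb1 (234 ± 13.0 CPM with carnosine, 286 ± 6.86 CPM with saline) fell (SD, n = 3 each). Ctcf, whose protein shapes the locus during joining, was at 236 ± 3.93 with carnosine and 234 ± 1.30 CPM with saline and did not pass.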

How the data were processed

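Libraries were made from poly-A RNA with a stranded paired-end kit, per the labels' protocols. For every gene and library, the authors deposited a whole-number count and an FPKM value. The submitters' processing notes list CASAVA 1.8, HISAT2, StringTie and edgeR, and GRCm38 as the build, without saying which did what. Strand settings and the handling of multiply matching reads are not stated. The counts of 3 carnosine and 3 saline libraries, grouped by title, were tested with edgeR 4.0.16 (filterByExpr, TMM, quasi-likelihood F-test, no covariate, Benjamini-Hochberg adjustment over 15533 genes), after a check on simulated data. CPM uses the same scaling, and a standard error is the log2 fold change divided by the square root of F. All 100 kappa V genes lay at their GENCODE M21 position, and coding sequences were aligned globally with Biopython 1.88. Members and lists were chosen with earlier results of these data known. The rule for named segments took the 10 highest per group in CPM, those at 0 in a group with at least 5 CPM in the other, the ends of the locus and the largest subgroups, and of each list up to 6 genes by level. Any other gene named was picked with its values in view. Alternatives were DESeq2 1.42.0, limma 3.58.1 on log2(FPKM + 1), no filter, a replicate block and leaving out libraries. A listed stem cell gene is not reported here.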

Additional observations from a re-analysis of the deposited data

How the results depend on the processing

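The 6115 genes called over the whole table, the 68 kappa V members called and the 34 list genes called stayed within 1.5 times under DESeq2 size factors, no filter, the DESeq2 Wald test, limma-trend on log2(FPKM + 1) and every library left out. With libraries left out, 5082 to 5317 genes, 65 to 69 members (56 to 59 higher, 9 or 10 lower) and 34 to 37 list genes were called. With the replicate number as a block, 66 members were called of 5231 genes. Deviations from the group means correlated at 0.0079 to 0.0268 for same-numbered libraries and at -0.025 to 0.0036 for differently numbered ones. With 3 libraries per group, these small values cannot decide if the numbers pair libraries. Leaving out, after seeing the data, the 44 of 91 members with at least 95% identity to another kappa V gene left 39 called. That number is lower chiefly because the set was smaller. Of the 68 called members 63 were called in every alternative with a value; Igkv10-96, Igkv10-95, Igkv4-74, Igkv8-30 and Igkv6-23 were not, and no called member changed sign. The ratio of summed levels, 1.72, was 1.79 on total counts, 1.86 without Igkv14-126, 1.82 without the similar members and 1.71 to 1.73 with libraries left out. The spread within carnosine libraries, 1.36, was 1.54 without the similar members and 1.29 to 1.51 with libraries left out, and that within saline libraries, 1.78, was 1.61 to 2.02. The causes were not tested. Segments of a few counts are limited by depth.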
